A study of Mus musculus with 16 samples.

Results

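The genes described here are 10 feedback genes of the ERK MAP kinase pathway, read out in mouse mammary carcinoma cells of high and no metastatic ability with and without an inhibitor of cytosolic phospholipase A2α. They are the MAP kinase phosphatases Dusp1, Dusp4, Dusp5 and Dusp6, the Sprouty inhibitors Spry2 and Spry4, the PEA3 group ETS factors Etv4 and Etv5, and the transcription factors Fosl1 and Egr1. They were picked by name, with fold changes of these samples already known, and all 10 were found among the 33072 genes of the count table. Their values, fold changes and threshold calls are therefore descriptions, and no p-value is attached to any of the 10.

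Background on the pathway: receptors signal through Ras, Raf and MEK to the kinase ERK, and active ERK switches on genes whose products turn the signal down again. The dual specificity phosphatases remove phosphate from MAP kinases, DUSP5 and DUSP6 mainly from ERK and DUSP1 and DUSP4 from ERK, JNK and p38. Sprouty proteins hold back the signal between receptor and Raf, ETV4 and ETV5 carry it to target genes, FOSL1 is a FOS family partner in AP-1 that ERK stabilizes, and EGR1 is an immediate early zinc finger factor. Transcripts of these genes are short lived and are widely used as a reading of ERK output in carcinoma cells.

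RNA was sequenced from 4T1 cells, which are metastatic, and 67NR cells, which are non-metastatic, 2 lines of BALB/c origin that come from 1 spontaneous mammary carcinoma. Cells were grown in medium with 10% serum. Each line received either the DMSO vehicle or 15 µM CIX, a cytosolic phospholipase A2α inhibitor, for 24 h, giving 4 groups of 4 biological replicates, or 16 samples. Each is a single line in culture, so the 2 lines cannot stand for metastatic and non-metastatic tumors in general. The comparison of CIX with vehicle asks how the transcriptome of each line responds to the inhibitor, and samples are called here by the number in their label, from 1 to 16.

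Total estimated counts ran from 21715700 to 29450629 per sample, and 3 counts, the floor used here, corresponded to 0.102 to 0.138 CPM (counts-per-million). The epithelial markers Krt8, Krt18, Epcam and Cdh1 had a summed level of 2420 to 2760 CPM in 4T1 and of 1.07 to 5.16 CPM in 67NR, in which Krt18 and Epcam were at 0 in some libraries. Cdh2, a mesenchymal cadherin, was at 0.0823 CPM or below in every 4T1 sample and between 142 and 195 CPM in every 67NR sample, so the libraries matched their labelled lines, while epithelial markers were near 0 in the labelled carcinoma line 67NR. The leukocyte markers Ptprc and Cd3e stayed at or below 1.44 CPM, but Cd68 was at 69.0 ± 15.2 CPM (SD, n = 4) in vehicle and 165 ± 29.8 CPM in CIX treated 4T1, and at 8.84 ± 2.00 and 37.5 ± 2.82 CPM in 67NR. Its part in the results was not tested. The mesenchymal markers Vim, Cdh2 and Fn1 summed to between 2490 and 3310 CPM in vehicle and 4310 and 5220 CPM in CIX treated 4T1, and to between 5950 and 6880 and 9080 and 9950 CPM in 67NR, and their part was likewise not tested. The endothelial markers Pecam1 and Cdh5 summed to at most 2.43 CPM. In bulk RNA, fewer cells expressing a gene and less RNA per cell cannot be told apart.

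CPM values below were scaled with TMM factors over all 16 samples. Fold changes come from limma-voom, and a call means a Benjamini-Hochberg adjusted p below 0.001 over all genes tested in that comparison. A gene entered a comparison only if at most 3 of its samples were below 1 TPM (transcripts-per-million). All 10 genes passed this filter in 4T1, and 9 passed it in 67NR and in the comparison of the vehicle treated lines, where Spry4 did not.

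The annotation (GRCm38) places Dusp1 on chromosome 17 (26505590 to 26562128, minus strand), Dusp4 on 8 (34807297 to 34819894, plus), Dusp5 on 19 (53529109 to 53542431, plus) and Dusp6 on 10 (99263231 to 99267489, plus). Spry2 lies on chromosome 14 (105891947 to 105896819, minus), Etv4 on 11 (101769742 to 101785371, minus), Etv5 on 16 (22381309 to 22439719, minus) and Fosl1 on 19 (5447547 to 5455946, plus). No word of 31 bases in the annotated transcripts of 8 of the 10 genes recurred in a transcript of another gene. For Spry2 the share of such words was 0.878%, and for Etv5 it was 30.3%, all of it shared with the processed pseudogene Gm4798 (the effect on the Etv5 counts was not tested).

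Promoter sequence of 250 bases before to 50 bases after the transcription start (RefSeq, GRCm38.p6) was at hand for 5 of the 10 genes, Dusp1, Dusp5, Dusp6, Spry2 and Etv5. Those of Dusp1 and Dusp5 are shown because the Dusp1 CIX samples lay above vehicle in 4T1 and below it in 67NR while those of Dusp5 lay above in both, and because each holds letters of a known response element. Dusp1 (chr17:26508423-26508722, minus strand) holds the palindrome of the cyclic AMP response element, TGACGTCA, beginning 143 bases before the start, in capitals here.
Dusp1: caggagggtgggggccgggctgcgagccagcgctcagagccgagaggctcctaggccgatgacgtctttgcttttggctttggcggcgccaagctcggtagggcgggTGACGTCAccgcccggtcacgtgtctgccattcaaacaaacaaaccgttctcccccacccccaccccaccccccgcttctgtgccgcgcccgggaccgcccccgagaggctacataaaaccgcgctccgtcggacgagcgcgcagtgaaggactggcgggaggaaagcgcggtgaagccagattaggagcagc
Dusp5 (chr19:53528895-53529194, plus strand) holds 2 adjoining CArG boxes, the element that binds serum response factor, beginning 82 and 72 bases before the start, both in capitals.
Dusp5: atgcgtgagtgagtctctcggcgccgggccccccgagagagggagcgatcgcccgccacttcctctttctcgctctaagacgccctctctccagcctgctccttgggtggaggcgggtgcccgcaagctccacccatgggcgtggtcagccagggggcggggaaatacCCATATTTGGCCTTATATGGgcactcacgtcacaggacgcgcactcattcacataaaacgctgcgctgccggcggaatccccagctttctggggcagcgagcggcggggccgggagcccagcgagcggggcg
Both strands were searched for these elements, for the AP-1 site TGANTCA and for the ETS core GGAAGT. Of the 32851 promoters in the table, 1.79% held a cyclic AMP response element, 1.63% a CArG box, 7.81% an AP-1 site and 23.8% the ETS core. The ETS core was also found once in the Dusp5 window, 193 bases before the start, and at 2 positions in the downstream of the 2 Etv5 windows (chr16:22438319-22438618), and none of the 4 elements was found in the Dusp6, Spry2 or other Etv5 windows. These matches are letters in a window and were not measured as binding sites.

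Dusp1, which acts on JNK and p38 as well as ERK, was 1.87 times as abundant in CIX treated as in vehicle treated 4T1 cells, whereas in 67NR the CIX samples lay below the vehicle samples. In 4T1 it was at 11.35, 13.6, 10.5 and 12.3 CPM in vehicle samples 3, 7, 11 and 15 and at 21.2, 22.1, 24.3 and 22.7 CPM in CIX samples 4, 8, 12 and 16. In 67NR it was at 157, 174, 159 and 146 CPM in vehicle samples 1, 5, 9 and 13 and at 97.9, 108, 101.2 and 117 CPM in CIX samples 2, 6, 10 and 14. The CIX samples all lay above the vehicle samples in 4T1 and all below them in 67NR, and both 67NR groups lay far above both 4T1 groups. The log2 fold change was 0.91 (SE 0.12) in 4T1, which passed the threshold, and -0.60 (SE 0.07) in 67NR, which did not. The difference of the responses was 1.51 (SE 0.14), the only member for which the interaction term passed, joined by Egr1 when sets of 4 consecutive sample numbers were added as a block (beside 7.47% of all genes), a grouping that the labels do not state and that was chosen after the data were seen. The 4T1 call was lost when any 1 of 7 of the 8 samples was left out, all but CIX sample 4. It was also lost with the block and without samples 3 and 4, whereas the interaction call stood in each of the 16 leave-one-out fits.

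Dusp4, a nuclear phosphatase, had the highest mean level per length of the 4 phosphatases among these genes in 4T1 and was higher with CIX in 67NR. In 67NR it was at 67.3, 63.5, 57.1 and 54.8 CPM in vehicle samples 1, 5, 9 and 13 and at 115.0, 114.5, 116.0 and 115.0 CPM in CIX samples 2, 6, 10 and 14. The 67NR groups did not overlap, and the log2 fold change of 0.91 (SE 0.07) passed the threshold. This call was lost with the block by sets of sample numbers (0.91, SE 0.07), with which 0 of all genes passed in 67NR. In 4T1 it was at 196, 230.4, 264 and 212 CPM in vehicle samples 3, 7, 11 and 15 and at 212, 339.5, 316 and 298 CPM in CIX samples 4, 8, 12 and 16. The 4T1 groups overlapped through CIX sample 4, and the log2 fold change was 0.34 (SE 0.15), or 0.44 (SE 0.11) without samples 3 and 4. With the block the 4T1 value was 0.34 (SE 0.10), higher with CIX in all 4 sets, and did not pass.

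Dusp5, a nuclear phosphatase that acts on ERK, had separate vehicle and CIX groups in both lines, with the CIX samples higher. The 67NR values were 27.9, 29.7, 29.4 and 24.8 CPM in vehicle samples 1, 5, 9 and 13 and 64.8, 77.8, 84.4 and 84.7 CPM in CIX samples 2, 6, 10 and 14. In 4T1 it was at 27.2, 16.9, 13.8 and 22.9 CPM in vehicle samples 3, 7, 11 and 15 and at 54.0, 30.5, 30.2 and 37.6 CPM in CIX samples 4, 8, 12 and 16. Every CIX sample thus lay above every vehicle sample of its line, although the lowest 4T1 CIX value was only slightly above the highest vehicle value. The log2 fold change was 1.45 (SE 0.10) in 67NR, past the threshold, and 0.90 (SE 0.25) in 4T1, not past it. With the block by sets of sample numbers the 4T1 value was 0.90 (SE 0.10) and passed, and the 67NR call was lost. The difference between the responses was -0.56 (SE 0.28) and did not pass. The calls of Dusp4 and Dusp5 in 67NR were each lost when any 1 of 6 samples was left out, vehicle samples 1, 5 and 9 and CIX samples 6, 10 and 14.

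Dusp6, the cytoplasmic ERK phosphatase, overlapped between vehicle and CIX samples in both lines. It was at 99.7, 55.8, 40.1 and 61.7 CPM in vehicle samples 3, 7, 11 and 15 of 4T1 and at 89.3, 31.03, 27.4 and 38.3 CPM in CIX samples 4, 8, 12 and 16. Samples 3 and 4 stood above the other samples of their groups, and the groups overlapped. In 67NR, Dusp6 was at 97.9, 112, 86.8 and 92.2 CPM in vehicle samples 1, 5, 9 and 13 and at 116, 157, 111 and 149 CPM in CIX samples 2, 6, 10 and 14, with CIX sample 10 just below vehicle sample 5. The log2 fold change was -0.58 (SE 0.38) in 4T1, -0.70 (SE 0.19) there without samples 3 and 4, and 0.43 (SE 0.13) in 67NR, and none of these passed the threshold. With the block by sets of sample numbers the 4T1 value was -0.55 (SE 0.12), lower with CIX in all 4 sets, and did not pass.

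**Figure D1:**
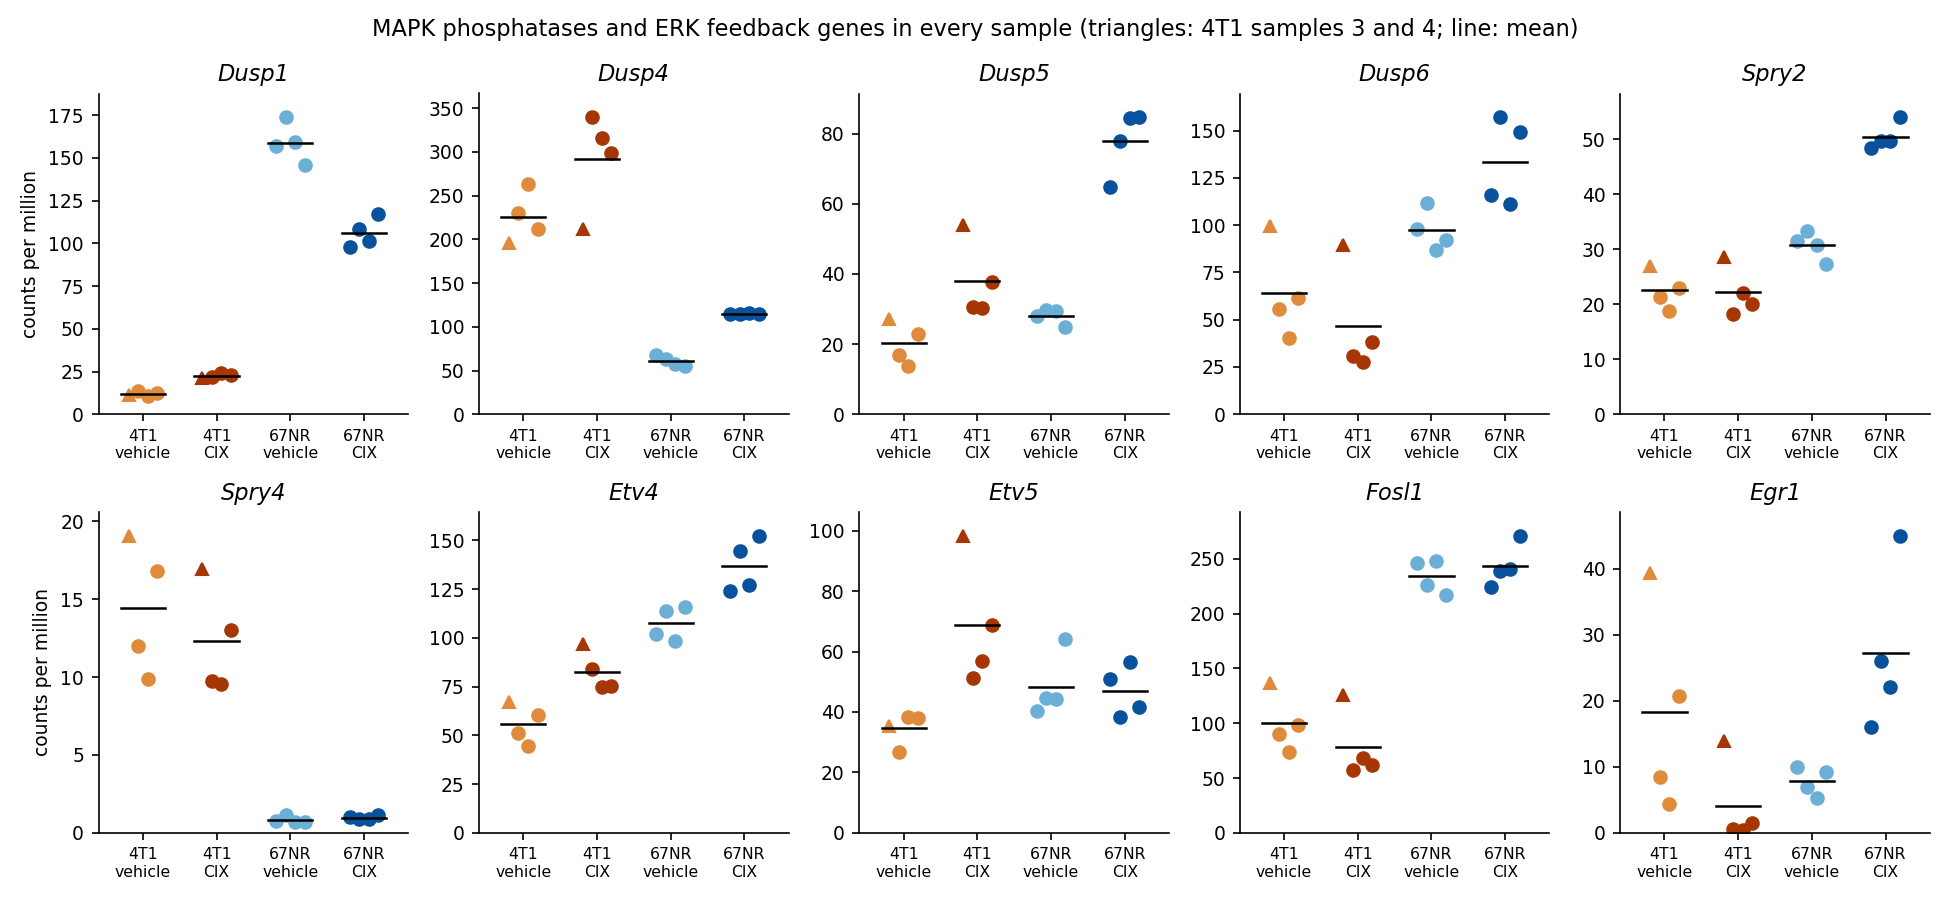
CPM of the 10 genes in each of the 16 samples, 1 panel per gene with its own axis starting at 0, points for samples and a line for each group mean; triangles mark 4T1 samples 3 and 4. Dusp1 runs from 10.5 to 24.3 CPM in 4T1 and from 97.9 to 174 CPM in 67NR, and the triangles are the highest points of both 4T1 groups for 7 genes.

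Spry2 and Spry4, which restrain receptor signaling upstream of Raf, overlapped between vehicle and CIX samples in 4T1, and Spry2 lay higher in the CIX samples of 67NR. In 67NR, Spry2 was at 31.6, 33.4, 30.7 and 27.3 CPM in vehicle samples 1, 5, 9 and 13 and at 48.4, 49.6, 49.7 and 54.0 CPM in CIX samples 2, 6, 10 and 14. In 4T1, Spry2 was at 27.0, 21.4, 18.8 and 23.0 CPM in vehicle samples 3, 7, 11 and 15 and at 28.5, 18.3, 21.96 and 20.1 CPM in CIX samples 4, 8, 12 and 16. The 67NR groups were separate and the 4T1 groups overlapped almost fully. The log2 fold change of Spry2 was 0.70 (SE 0.07) in 67NR and -0.04 (SE 0.17) in 4T1, and neither passed. Spry4 was at 19.1, 12.0, 9.87 and 16.8 CPM in vehicle samples 3, 7, 11 and 15 of 4T1 and at 16.96, 9.76, 9.56 and 13.0 CPM in CIX samples 4, 8, 12 and 16, a log2 fold change of -0.24 (SE 0.26). In 67NR, Spry4 was nearly silent, at 0.675 to 1.11 CPM in the vehicle samples and 0.867 to 1.13 CPM in the CIX samples. These 67NR values rest on 16 to 26 estimated counts per sample and overlapped, and without the filter the log2 fold change with CIX was 0.30 (SE 0.27).

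Etv4 and Etv5, ETS activators that take the ERK signal to promoters, both lay higher in every CIX sample than in any vehicle sample of 4T1. Etv4 was at 67.4, 51.3, 44.6 and 60.2 CPM in vehicle samples 3, 7, 11 and 15 of 4T1 and at 97.1, 84.0, 74.7 and 75.2 CPM in CIX samples 4, 8, 12 and 16. For 67NR the values were 102, 114, 98.3 and 116 CPM in vehicle samples 1, 5, 9 and 13 and 124, 144, 127 and 152 CPM in CIX samples 2, 6, 10 and 14. The groups of Etv4 were separate in both lines, with log2 fold changes of 0.56 (SE 0.15) in 4T1 and 0.33 (SE 0.09) in 67NR that did not pass the threshold. Etv5 was at 35.5, 26.7, 38.4 and 37.9 CPM in vehicle samples 3, 7, 11 and 15 of 4T1 and at 98.3, 51.1, 57.0 and 68.6 CPM in CIX samples 4, 8, 12 and 16. In 67NR it was at 40.4, 44.6, 44.4 and 64.1 CPM in vehicle samples 1, 5, 9 and 13 and at 50.9, 38.2, 56.5 and 41.6 CPM in CIX samples 2, 6, 10 and 14. Etv5 groups were therefore separate in 4T1 and mixed in 67NR, where vehicle sample 13 was the highest. Its log2 fold change was 0.94 (SE 0.21) in 4T1 and -0.06 (SE 0.18) in 67NR, and the difference of 1.00 (SE 0.29) did not pass the threshold. Without samples 3 and 4 the 4T1 value was 0.79 (SE 0.17).

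Fosl1 and Egr1, the FOS family and immediate early factors of the set, differed in their spread, and relative to its mean Egr1 varied more within each of the 4 groups than any other member. Fosl1 was at 137, 90.5, 73.7 and 98.8 CPM in vehicle samples 3, 7, 11 and 15 of 4T1 and at 125, 57.1, 68.3 and 62.3 CPM in CIX samples 4, 8, 12 and 16. In 67NR, Fosl1 was at 246, 226, 248 and 217 CPM in vehicle samples 1, 5, 9 and 13 and at 225, 239, 241 and 271 CPM in CIX samples 2, 6, 10 and 14. The groups of Fosl1 overlapped in both lines, with log2 fold changes of -0.41 (SE 0.26) in 4T1 and 0.04 (SE 0.07) in 67NR. With the block by sets of sample numbers its 4T1 value was -0.40 (SE 0.12), lower with CIX in all 4 sets, and did not pass. Egr1 was at 39.4, 8.45, 4.35 and 20.8 CPM in vehicle samples 3, 7, 11 and 15 of 4T1 and at 13.8, 0.516, 0.466 and 1.45 CPM in CIX samples 4, 8, 12 and 16. The 67NR libraries gave 9.99, 6.95, 5.28 and 9.20 CPM in vehicle samples 1, 5, 9 and 13 and 16.0, 26.04, 22.1 and 45.0 CPM in CIX samples 2, 6, 10 and 14. All 67NR CIX samples lay above the vehicle samples, while in 4T1 the CIX samples other than sample 4 lay below every vehicle sample. Log2 fold changes of Egr1 were -3.17 (SE 1.09) in 4T1, -3.68 (SE 0.89) there without samples 3 and 4, and 1.71 (SE 0.36) in 67NR, and none passed the threshold. The 4T1 value moved with the fit, to -4.23 (SE 1.17) without CIX sample 4 and to -2.18 by edgeR and by DESeq2, and the difference of the responses likewise. With the block the 4T1 value of Egr1 was -2.57 (SE 0.35), lower with CIX in all 4 sets, and did not pass. The lowest 4T1 CIX library held 12 estimated Egr1 counts, so that fitted values there depend on few reads.

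Counted together, 1 of the 10 members passed the threshold in 4T1, higher with CIX, where 9.28% of all 11677 tested genes passed and 5.33% passed as higher. In 67NR, 2 of 9 passed, both higher, where 0.389% of 11583 genes passed and 0.181% passed as higher. With the block by sets of sample numbers, Dusp5 passed in 4T1 in place of Dusp1, beside 9.79% of all genes, and 0 members passed in 67NR, where 0 of all genes did. For the interaction 1 of 10 passed, with the larger value in 4T1, beside 7.86% of 12629 genes, 4.81% in that direction. Members whose difference of responses was not yet given were Egr1 at -4.88 (SE 1.18), Dusp6 at -1.01 (SE 0.42), Spry2 at -0.74 (SE 0.18), Dusp4 at -0.57 (SE 0.19), Spry4 at -0.53 (SE 0.54), Fosl1 at -0.45 (SE 0.28) and Etv4 at 0.22 (SE 0.17). The vehicle and CIX groups did not overlap for 4 members in 4T1 (Dusp1, Dusp5, Etv4 and Etv5, all higher) and for 6 in 67NR (Dusp4, Dusp5, Spry2, Etv4 and Egr1 higher and Dusp1 lower), beside 39.9% and 23.3% of all tested genes. At an adjusted p below 0.05 the counts were 5 of 10 in 4T1 and 6 of 9 in 67NR, beside 42.7% and 17.8% of all tested genes. The median log2 fold change of the members was 0.15 in 4T1 and 0.43 in 67NR, beside -0.01 over all genes in each line, and since the members were chosen with these contrasts known, nothing is read from these shares.

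**Figure D2:**
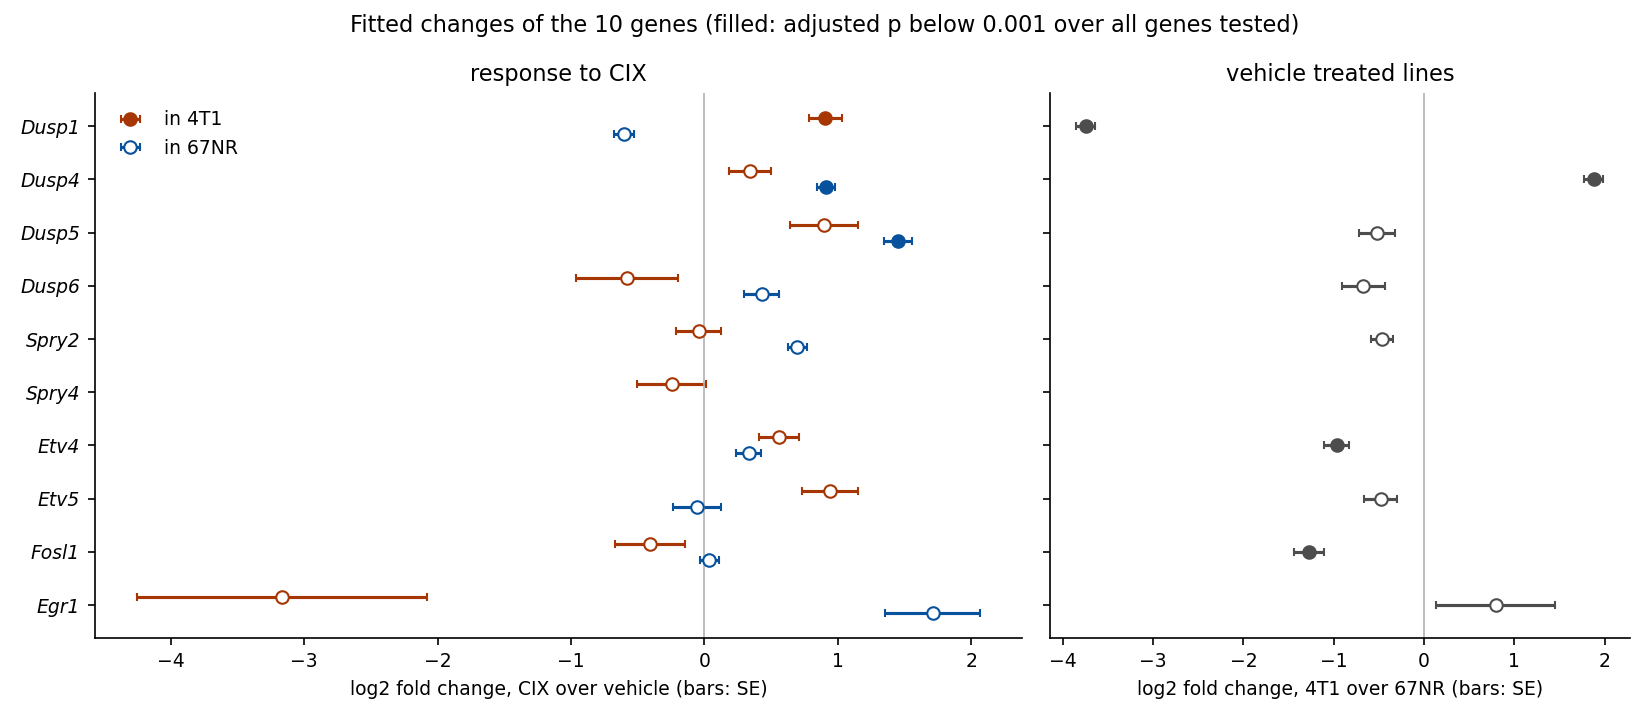
Fitted log2 fold changes of the 10 genes with SE bars, for CIX over vehicle within each line on the left and for vehicle treated 4T1 over 67NR on the right; filled points passed an adjusted p of 0.001, and Spry4 has no point where the filter left it out. Dusp1 lies on opposite sides of 0 in the lines (0.91 and -0.60), as does Egr1 with wider bars (-3.17 and 1.71).

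In 4T1, samples 3 and 4 stood apart for most of these genes. Vehicle sample 3 was the highest of its group for 7 members and CIX sample 4 the highest of its group for 8, and for the 7 members Dusp5, Dusp6, Spry2, Spry4, Etv4, Fosl1 and Egr1 both were highest. Over all genes tested in 4T1, the shares were 34.1% for sample 3, 34.1% for sample 4 and 19.8% for both. The ratio of sample 4 to the mean of the other CIX samples was 17.1 for Egr1, 2.77 for Dusp6 and 2.00 for Fosl1, and that of sample 3 to the other vehicle samples was 3.52, 1.90 and 1.56. Dusp4 went the other way, lowest of its group in both, and Dusp1 was close to its group in both, at 0.935 and 0.920 times the mean of the others. With samples 3 and 4 left out, an alternative added after the data were seen, each of the 10 members kept its direction in 4T1. No member passed there, with Dusp1 at 0.93 (SE 0.13), and Dusp1 still passed for the interaction (1.52, SE 0.15). The share of all genes passing in this smaller fit was not counted, so nothing is read from the loss of calls. Samples 3 and 4 fall in the same set of consecutive sample numbers, and over all tested genes their deviations from their group means correlated at 0.411. The labels give no reason why these samples stood apart, and the source was not tested.

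**Figure D3:**
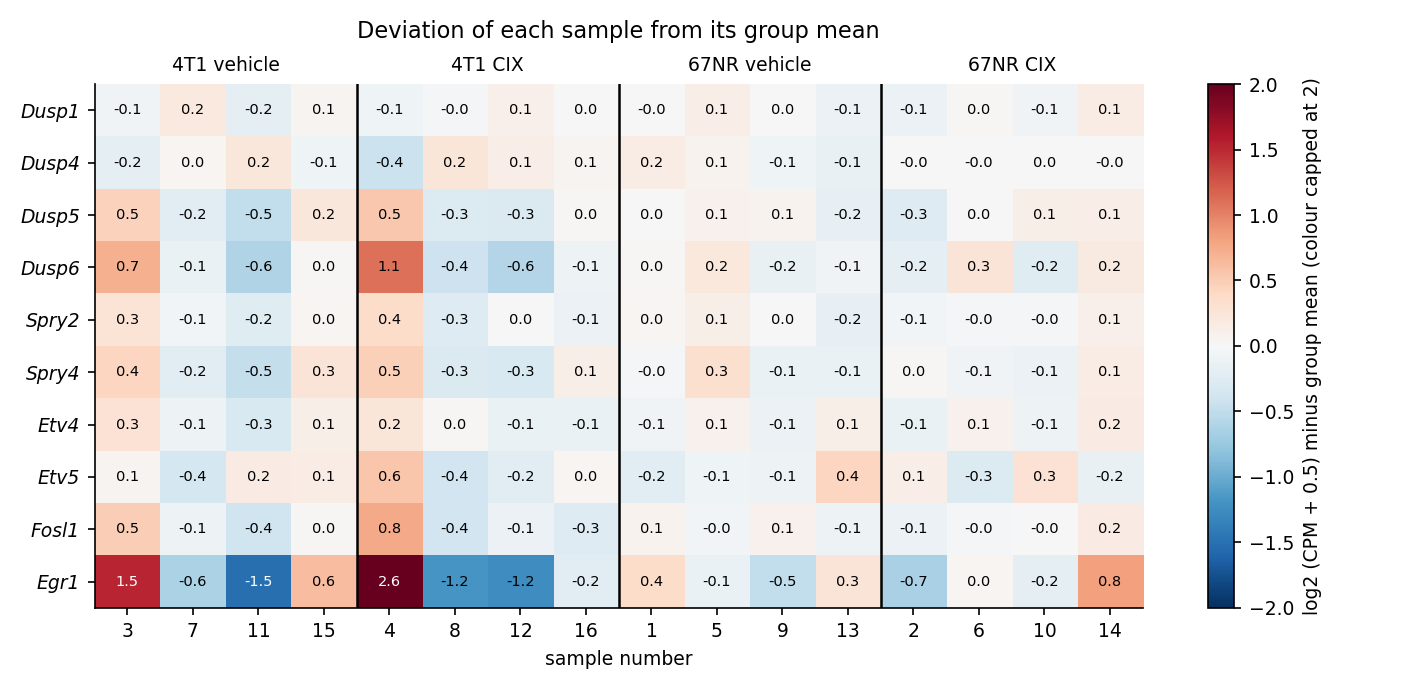
Deviation of each sample from its group mean on the scale of log2 (CPM + 0.5), genes in rows and samples in columns ordered by group, red for above and blue for below the mean with the value printed in each cell. Samples 3 and 4 are red for most genes other than Dusp1 and Dusp4, and the 67NR columns are paler.

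The question of which feedback genes differ between the lines at baseline was addressed with the vehicle samples, which are the same samples that serve as controls for CIX. Dusp1 was lower in 4T1 than in 67NR by far, with means of 11.9 ± 1.35 and 159 ± 11.52 CPM (SD, n = 4 each) and a log2 fold change of -3.75 (SE 0.11), so that the CIX treated 4T1 cells at 22.6 ± 1.30 CPM remained well below either 67NR group. Dusp4 went the other way, at 226 ± 29.0 CPM in 4T1 and 60.7 ± 5.75 CPM in 67NR (log2 fold change 1.88, SE 0.11). Etv4 at 55.9 ± 9.98 and 107 ± 8.64 CPM and Fosl1 at 99.9 ± 26.7 and 234 ± 15.3 CPM were both lower in 4T1, with log2 fold changes of -0.97 (SE 0.14) and -1.27 (SE 0.17). These 4 of the 9 members tested passed the threshold, 1 higher and 3 lower in 4T1, beside 40.0% of all 11058 genes tested, 20.4% higher and 19.6% lower, and the Etv4 call was lost without 4T1 vehicle sample 7. Dusp5, Dusp6, Spry2 and Etv5 had log2 fold changes from -0.67 to -0.47 and did not pass, the lines overlapping for Dusp5 and Dusp6 but not for Spry2 and Etv5, and Egr1, which also overlapped, was at 0.79 (SE 0.66).

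Spry4 was left out of this comparison by the filter, although its levels were far apart. It was at 14.4 ± 4.24 CPM in 4T1 and 0.806 ± 0.208 CPM in 67NR (SD, n = 4 each), and without the filter the log2 fold change was 4.09 (SE 0.36). No 67NR sample reached the lowest 4T1 sample.

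Levels of different genes were compared per length, in TPM. In vehicle treated 4T1, Fosl1 (147 ± 40.2 TPM, SD, n = 4) and Dusp4 (109 ± 11.4 TPM) led, with overlapping ranges, followed by Etv4 (68.3 ± 13.5 TPM) and Dusp6 (50.4 ± 19.97 TPM), which also overlapped. Etv5, at 25.5 ± 4.08 TPM, came next, and Spry2, Dusp5, Dusp1 and Egr1 followed with means between 14.3 and 6.49 TPM and overlapping neighbours, with Spry4 last at 4.05 ± 1.26 TPM. In vehicle treated 67NR, Fosl1 led alone at 323 ± 29.5 TPM, and Dusp1 (133 ± 13.0 TPM) and Etv4 (123 ± 7.73 TPM) overlapped. They were followed by Dusp6 (71.5 ± 8.65 TPM), by Etv5 and Dusp4 with overlapping ranges (33.3 ± 6.17 and 27.6 ± 3.11 TPM), by Spry2 and Dusp5, and by Egr1 (2.60 ± 0.668 TPM) and Spry4 (0.215 ± 0.0572 TPM), each of these last 2 apart from its neighbour. With CIX, Dusp4 stood above Fosl1 in the 4T1 means (132 ± 25.7 and 108 ± 43.5 TPM), within overlapping ranges. Egr1 had the lowest 4T1 mean at 1.35 ± 2.17 TPM, and its highest sample overlapped the range of Spry4 (3.23 ± 0.91 TPM). In CIX treated 67NR, Fosl1 and Etv4 were first, and Dusp1 at 88.2 ± 8.90 TPM came next behind Dusp6 at 97.5 ± 17.5 TPM with an overlapping range.

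The other genes of the pathway were taken as 67 genes in 8 lists, each a family or pathway step, with tests adjusted over all genes. The lists were drawn up with earlier results of these samples known, so their counts are not independent of the values. In 4T1, 3 of 63 passed the threshold, 2 higher and 1 lower, beside 9.28% of all genes tested, 5.33% higher and 3.96% lower. Of 6 other MAP kinase phosphatases, Dusp8, which acts on JNK and p38, rose from 4.25, 7.00, 6.04 and 9.05 CPM in vehicle samples 3, 7, 11 and 15 to 16.1, 17.6, 22.03 and 16.8 CPM in CIX samples 4, 8, 12 and 16 (log2 fold change 1.49, SE 0.22, limma-voom adjusted p = 0.000786). Of 21 genes of the Ras-Raf-MEK-ERK cascade, the receptor gene Erbb2 rose by 0.77 on the log2 scale (SE 0.12, limma-voom adjusted p = 0.000949). Map2k1, which encodes MEK1, fell by 0.73 on the log2 scale (SE 0.11, limma-voom adjusted p = 0.00091). It was at 159 to 185 CPM in the 4T1 vehicle samples and 89.0 to 121 CPM in the CIX samples, without overlap. No gene passed among 6 other Sprouty, Spred and receptor-level inhibitors, 5 PEA3, ternary complex and SRF factors, 6 FOS and JUN genes, 6 EGR, NAB and immediate early genes, 4 ERK output genes or 9 JNK and p38 genes. At an unadjusted p below 0.05 these lists held 17 of 36 genes in the same limma-voom fit, beside 51.1% of all genes. Of the 36, 0 passed by edgeR and 5 by DESeq2, beside 8.79% and 26.5% of all genes. The calls of Dusp8 and Erbb2 were lost whichever of the 8 samples was left out, that of Map2k1 for all samples but CIX sample 4, and all 3 were lost without samples 3 and 4 and by edgeR.

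In 67NR, 0 of 57 passed by limma-voom, beside 0.389% of all genes, and 23 had an unadjusted p below 0.05, beside 32.8% of all genes. At an adjusted p below 0.05 there were 18, 15 of them higher with CIX, beside 17.8% of all genes tested, 8.5% as higher. By edgeR 0 passed and by DESeq2 9, beside 0.397% and 8.98% of all genes. The median log2 fold change was 0.12 over these 57 genes and -0.01 over all genes.

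**Figure D4:**
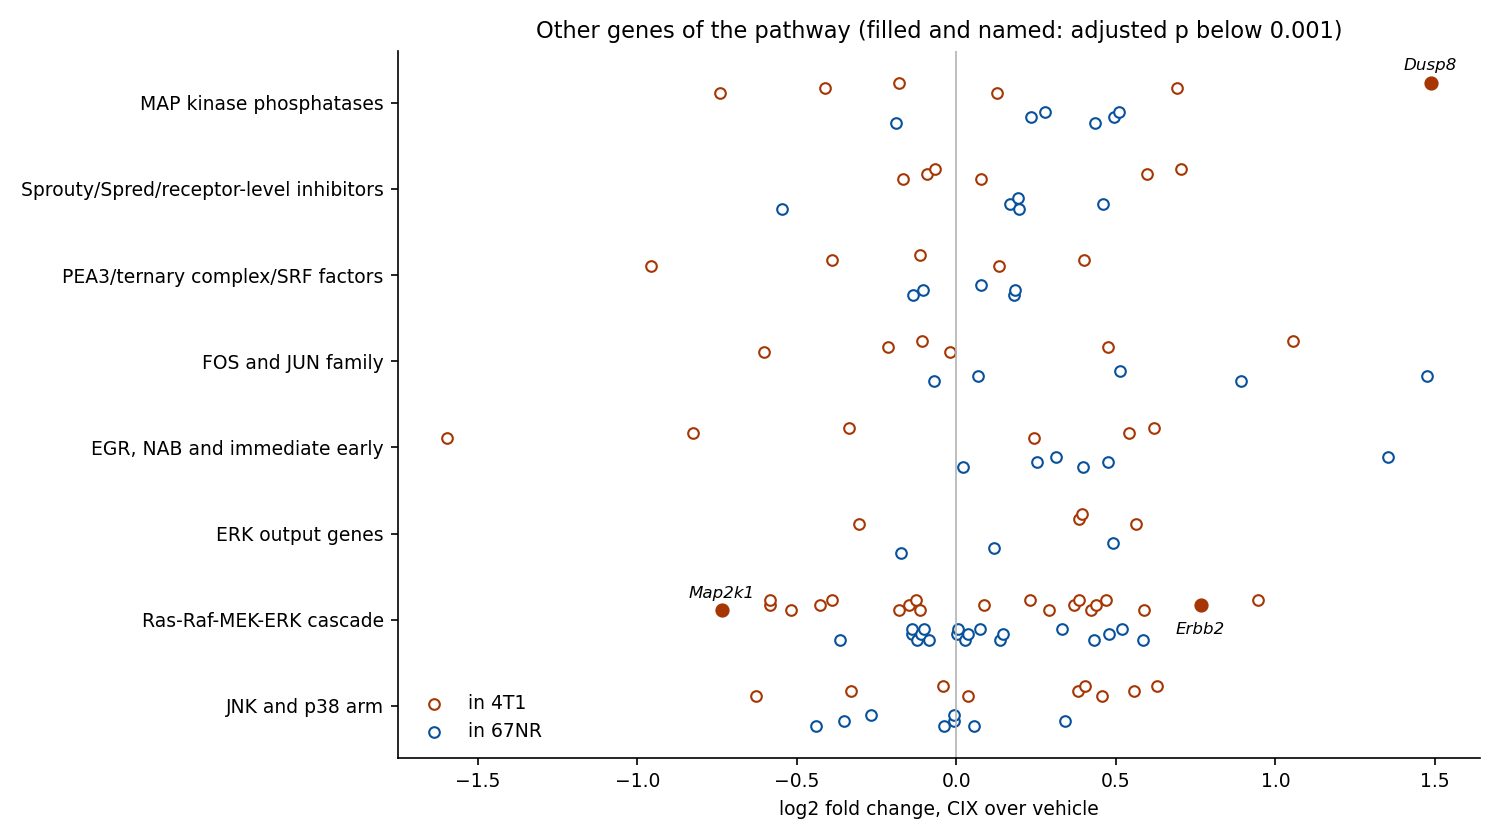
Log2 fold change with CIX of each tested gene in the 8 lists of other pathway genes, 4T1 in brown and 67NR in blue, 1 point per gene; filled and named points passed an adjusted p of 0.001. Dusp8, Erbb2 and Map2k1 in 4T1 are the filled points, and no 67NR point is filled.

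For the difference between the responses of the lines, 0 of the 64 other pathway genes tested passed by limma-voom, beside 7.86% of all genes. An unadjusted p below 0.05 was found for 25, beside 39.1% of all genes, and an adjusted p below 0.05 for 15, beside 29.3%. By edgeR 1 passed, the AP-1 gene Fosl2, and by DESeq2 4 did, beside 8.02% and 15.7% of all genes, these being Fosl2, Junb, Map2k1 and the adaptor gene Grb2, with Fosl2, Junb and Grb2 named here after their values were seen. In limma-voom, Map2k1 had a difference of -0.77 (SE 0.15, limma-voom adjusted p = 0.00135). Junb, an AP-1 subunit, had log2 fold changes with CIX of -0.60 (SE 0.19) in 4T1 and 0.89 (SE 0.18) in 67NR, neither past the threshold, and the difference of -1.49 (SE 0.29) missed the threshold (limma-voom adjusted p = 0.00117).

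Between the vehicle treated lines, 23 of 56 other pathway genes passed, 12 higher and 11 lower in 4T1, beside 40.0% of all genes. The AP-1 genes Junb and Jun were opposed to each other, with Junb at 217 to 276 CPM in 4T1 and 33.5 to 45.4 CPM in 67NR (log2 fold change 2.62, SE 0.12) and Jun at 69.5 to 88.1 and 356 to 414 CPM (-2.28, SE 0.10). Jund was also higher in 4T1 (1.63, SE 0.12). Ier3, an immediate early gene linked to cell survival, was higher in 4T1 (2.66, SE 0.11), and Nab2, a corepressor of EGR factors, was lower (-2.03, SE 0.13). The cyclin gene Ccnd1 was lower in 4T1 (-2.73, SE 0.28), at 181 to 577 CPM against 1841 to 2182 CPM, with vehicle sample 3 the highest in 4T1, and the ERK output gene Phlda1 was lower by a smaller amount (-0.62, SE 0.10). In the cascade, the exchange factor gene Sos2 was lower (-1.22, SE 0.15), and Rps6ka2, a kinase downstream of ERK (1.48, SE 0.20), and Map2k1 (1.18, SE 0.08) were higher. Of the 31-base words of Rps6ka2, 23.8% recurred in transcripts of other genes, as did 12.1% of those of Grb2. The effect on their counts was not tested. Of the p38 arm, Mapk12 was at 51.6 to 64.1 CPM in 4T1 and 0.674 to 1.15 CPM in 67NR, and Map2k3 was lower in 4T1 (-1.11, SE 0.18).

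Among the phosphatases outside the set, Dusp8 (-1.39, SE 0.23) and Dusp10 (-1.02, SE 0.14) were lower in 4T1, while Dusp16, named after its values were seen, was higher (0.93, SE 0.13). Of the 6 genes of this list 4 were higher and 2 lower at an adjusted p below 0.05, beside 67.4% of all genes in either direction. Spry1 (1.49, SE 0.24) was higher and Spred3 (-1.25, SE 0.22) lower, and of the ternary complex factors Elk1 (0.63, SE 0.10) was higher and Elk3 (-0.66, SE 0.09) lower. Each tested gene named here from the 8 lists of other pathway genes for this comparison had a limma-voom adjusted p below the threshold, the largest being 0.000688 for Spred3. Several of these calls were lost with 1 sample fewer, while the direction held in every such fit. Leaving out 1 sample ended the call of Dusp8, Spred3 and Map2k3 in 6 of 8 fits. It ended the call of Spry1 and Phlda1 in 5, of Elk1 in 4 and of Dusp10 in 1. The calls of Spred3 and Map2k3 were also lost by edgeR, those of Spred3 and Phlda1 with all 16 samples in 1 fit, and that of Elk1 without the filter. The filter left out 11 of the 67 genes, among them Rps6ka1, at 99.3 CPM or more in 4T1 and 0.357 CPM or less in 67NR, and Map2k6, at 0.0438 CPM or less in 4T1 and 10.3 CPM or more in 67NR, both named after their values were seen.

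The genes whose pattern over the 16 samples was most like that of Dusp6 were Rhoj, a small GTPase, Cd14, a lipopolysaccharide co-receptor, and Phlda1, at root mean square differences of 0.200, 0.248 and 0.286 in centred log2 (CPM + 0.5) over 12629 genes. The mean of Phlda1 was 70.6 CPM in vehicle and 59.3 CPM in CIX treated 4T1 and 108 and 154 CPM in 67NR. Nearest to Egr1 were Hsd17b7, Mfsd8 and Rnf183, at larger differences of 0.881, 1.00 and 1.03 on a measure that grows with a gene's own spread, which was wider for Egr1. This likeness is a description over samples that share lines and treatments.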

How the data were processed

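The deposited table holds estimated counts per gene. The authors quantified single-end reads of poly(A) RNA libraries with salmon against the mouse Ensembl GRCm38 transcripts and summed transcripts to genes with tximport. The submitters' processing notes list Salmon 0.12 and name the build GRCh38, although the gene identifiers are mouse. Depth ran from 21715700 to 29450629 estimated counts per sample.

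Estimated counts were rounded to whole numbers. A gene was left out of a comparison if over 3 of its samples were under 1 TPM, where TPM was approximated from the counts and the mean transcript length of the annotation, so that levels between genes are approximate. limma 3.58.1 (voom, TMM from edgeR 4.0.16, R 4.3.3) was fitted to the 8 samples of each line, to the 8 vehicle samples and, for the interaction, to all 16 samples, with a gene left out only if it failed the filter in both lines. Calls used a Benjamini-Hochberg adjusted p below 0.001 over all genes tested, the threshold of the study. For CIX in 4T1 this called 1084 of 11677 genes, or 2689 with all 16 samples in 1 fit. The study reported more genes than either, so the counts given here are not those of the study. The fit was tested on simulated data with the same dispersion, or spread between replicates, for all genes and no sample effects. Recovery of genes as variable as Egr1 or Dusp6 in 4T1 was not tested, so a missing call does not show that a gene is unchanged. With 200 of 11677 genes changed, the 4T1 fit recovered 96.5% at a fold of 2 and 99% at a fold of 4, and with 200 of 11583 genes changed the 67NR fit recovered 94% and 100%.

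The 10 members and the lists of other genes were chosen with earlier results of these data known. A further 2 genes of the cascade list, which passed in some comparisons, are not reported here and are in no count of the lists, so that limma-voom counts of the lists at this threshold are up to 2 lower than with them, except for CIX in 67NR, where neither passed. Named were all members, list genes that passed for CIX in either line, those among the 3 largest vehicle differences of each list that passed, and the 3 genes nearest to Dusp6 and to Egr1. Alternatives were edgeR and DESeq2 1.42.0, other scaling, no filter, a threshold of 0.05, all 16 samples in 1 fit, leaving out each sample and, added after the data were seen, leaving out samples 3 and 4 and a block by sets of sample numbers.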

Additional observations from a re-analysis of the deposited data

Results flagged for a closer look

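In the CIX treated 4T1 group, sample 4 lay far from the other samples for Fosl1, at 125.4 CPM where the others ran from 57.1 to 68.3 CPM, and for Egr1, at 13.84 CPM where the others ran from 0.466 to 1.45 CPM. The gap to the nearest sample, divided by the range, was 0.836 and 0.926, above Dixon's 95% critical value for 4 samples. Of 40 groups of 4 samples compared in this way, 2 stood out, and chance alone gives about 1 in 20.

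The responses of the lines to CIX differed for Dusp1, by 1.51 on the log2 scale (4T1 minus 67NR), a value given as a description since Dusp1 was chosen with results known.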

How the results depend on the processing

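The direction of every called member was the same under every alternative run. Members' log2 fold changes moved by less than the largest SD among their groups in all 651 refits, but small ones changed sign in 7 (Spry2 in 4T1 in 4, Etv5 in 67NR in 2, Fosl1 in 67NR in 1). This bound is wide for a variable gene, and within it Egr1 in 4T1 moved from -3.17 to -4.23 without CIX sample 4 and to -2.18 by edgeR. Calls of members were lost in 24 refits (Dusp1 in 4T1 in 9, Dusp4 and Dusp5 in 67NR in 7 each, Etv4 between vehicle lines in 1) and gained in 8. Of the named other genes, direction and call held in 337 refits, a call was lost in 72 and gained in 4 (all Map2k1 for the interaction), and 1 reversed, Map2k1 in 67NR, at -0.0558 without CIX sample 10 (range over left-out samples -0.0558 to 0.107). Counts of genes past the threshold moved as follows, and the cause was not tested. With DESeq2, 2 members and 12 other pathway genes passed in 4T1, 5 members and 9 others in 67NR, and 4 others for the interaction, beside 26.5%, 8.98% and 15.7% of all genes. With edgeR, 0 others passed in 4T1 and 1 for the interaction, and with all 16 samples in 1 fit 9 did in 4T1, beside 23.0% of all genes. At a threshold of 0.05 the counts of members were 5 in 4T1, 6 in 67NR, 5 for the interaction and 8 between vehicle lines, and those of others were 25, 18, 15 and 37, beside 42.7%, 17.8%, 29.3% and 67.4% of all genes. Without samples 3 and 4, 0 members and 1 other passed in 4T1 and 4 others for the interaction. The shares of all genes passing were not counted for this fit or for those leaving out 1 sample, so nothing is read from these counts. Leaving out 1 sample gave 0 to 1 members and 0 to 2 others in 4T1, 0 to 2 members in 67NR with 0 others throughout, 1 to 2 members and 0 to 4 others for the interaction, and 3 to 5 members and 17 to 23 others between vehicle lines. Other scaling moved the median of all genes by at most 0.06 on the log2 scale. The labels pair no samples. Sample numbers run in 4 consecutive sets that each hold every group, and a replicate block by these sets was added after the data were seen. Over all tested genes the vehicle and CIX samples of a set had deviations from their group means that correlated at 0.0505 to 0.411 in 4T1 and -0.0505 to 0.101 in 67NR. For samples of different sets the values were -0.274 to 0.206 and -0.0864 to 0.097. The ranges overlapped, but the 4T1 same-set values of 0.411 and 0.322 exceeded every value across sets there. The labels do not state the sets, and the main fits did not take them as pairs and so ignore any sharing within sets. With the replicate block, 1 member (Dusp5, no longer Dusp1) and 0 others passed in 4T1, 0 members and 0 others in 67NR, and 2 members (Dusp1 and Egr1) and 2 others for the interaction, beside 9.79%, 0.0% and 7.47% of all genes. The SE in 4T1 fell with the block for several members, to 0.12 for Dusp6. In 4T1 the difference within sets had 1 sign in all 4 sets for 9 members, among them Dusp6, Fosl1 and Egr1 (lower) and Dusp4 (higher), whose groups overlap, and the blocked value of Egr1 was -2.57 (SE 0.35). Low counts limit Spry4 in 67NR and Egr1 in CIX treated 4T1.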
